A study of Mus musculus with 8 samples.

Results

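The genes described are 10 members of the system that cuts the extracellular matrix and of its inhibitors: the matrix metalloproteinases Mmp2, Mmp3, Mmp14 and Mmp15, the secreted proteases Adamts1 and Adamts2, and the 4 tissue inhibitors of metalloproteinases, Timp1, Timp2, Timp3 and Timp4. They were chosen by symbol from a deposited table of 23847 rows, and the row of highest mean level stood for each symbol. All 10 reached a mean of 1 FPKM (fragments scaled for transcript length and library size), as did 11975 genes in all. The samples were ventricles of C57BL/6 mice at postnatal day 21: 4 Med1cKO libraries, from a cardiac knockout of Med1, and 4 WT libraries, from mice carrying the floxed Med1fl/fl allele. The sources used here do not give the promoter that drove the deletion, nor whether a library was 1 animal. Without that, the spread behind each p-value may be technical.

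Metalloproteinases are zinc enzymes that are made as inactive precursors and cleave collagens, laminins and proteoglycans. Mmp2 is a gelatinase of fibroblasts, Mmp14 and Mmp15 are anchored in the membrane, and MMP14 together with TIMP2 activates the MMP2 precursor at the cell surface. TIMP proteins block the active site of these enzymes, and TIMP3 stays bound in the matrix and also inhibits ADAM and ADAMTS proteases. In the heart the balance between enzymes and inhibitors is known to shape the collagen network around the myocytes. RNA levels do not give enzyme activity.

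Promoters are shown for Timp1, the member with the largest rise, for Mmp15, the one that fell, and for Mmp3, whose Med1cKO libraries differed widely. The sequences are the 250 bases before the gene's start from RefSeq (GRCm38.p6), 5′ to 3′ on the gene's strand, at chrX:20869916-20870165 for Timp1, chr8:95352046-95352295 for Mmp15 and chr9:7445572-7445821 for Mmp3, all on the plus strand. Capitals mark a match to the AP-1 motif TGANTCA.
Timp1: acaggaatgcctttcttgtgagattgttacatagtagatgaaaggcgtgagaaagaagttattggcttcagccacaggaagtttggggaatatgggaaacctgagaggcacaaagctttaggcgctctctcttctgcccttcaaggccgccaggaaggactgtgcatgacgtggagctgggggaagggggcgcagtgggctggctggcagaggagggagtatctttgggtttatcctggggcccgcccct
Mmp15: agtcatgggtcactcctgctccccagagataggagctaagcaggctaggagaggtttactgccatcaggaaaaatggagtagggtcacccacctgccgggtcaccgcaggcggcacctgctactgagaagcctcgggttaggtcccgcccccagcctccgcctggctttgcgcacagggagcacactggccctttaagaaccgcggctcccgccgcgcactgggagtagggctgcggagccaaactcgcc
Mmp3: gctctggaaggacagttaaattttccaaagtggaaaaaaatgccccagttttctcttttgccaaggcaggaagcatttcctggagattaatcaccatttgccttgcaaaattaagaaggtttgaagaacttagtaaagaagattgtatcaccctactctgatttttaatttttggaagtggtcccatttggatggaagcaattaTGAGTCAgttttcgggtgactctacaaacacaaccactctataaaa

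Promoter windows were found for 9 of the 10 members, without Mmp2. On either strand, the AP-1 letters occurred in the Mmp3 window alone among the 9, starting at position -46, and in 6.75% of 32851 windows of the same length. The TATA letters TATAAA stood at position -7 in Mmp3 and at -32 in Adamts1, and 12.4% of all windows held them. The nuclear receptor half-site AGGTCA was searched in the same way and occurred in none of the 9 windows, against 14.0% of all windows. The direct repeat of that half-site with 1 base between, which overlaps the half-site by construction, and the serum response element core were also in none of the 9, against 0.0335% and 1.47% of all windows. The windows differed in base composition. That of Mmp3 had 37.6% G and C, those of Timp1 and Mmp15 had 54.4% and 63.6%, and that of Adamts2 had 78.0%, where the median of all windows was 52.4%.

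Med1 itself had 7.80, 8.37, 7.89 and 9.15 FPKM in the Med1cKO libraries and 15.5, 16.1, 10.6 and 16.8 FPKM in the WT libraries. The mean was 8.31 ± 0.619 FPKM in Med1cKO and 14.8 ± 2.83 FPKM in WT (SD, n = 4 each), and the two-sided exact permutation p was 0.0286, the smallest that 70 assignments can give. Total FPKM ran from 481719 to 502629 in Med1cKO libraries and from 507484 to 536174 in WT libraries, and the number of fragments per library is unknown. Among the 11975 genes tested with limma, 5372 were higher and 1964 lower in Med1cKO at an adjusted p under 0.05. After rescaling the libraries by median of ratios, 3219 were higher and 3203 lower. The median of all genes was 0.25 higher in Med1cKO on the log2 scale as deposited and 0.01 higher after rescaling. Med1cKO replicate 4 stood apart from the other Med1cKO libraries on the second principal component, which held 9.1% of the variance. The defining genes of ventricular muscle were present in every library, with 8 cardiomyocyte markers summing to 15601 to 23277 FPKM in Med1cKO and 43562 to 49115 FPKM in WT. Of these 8 markers 7 were lower and 1 was higher in Med1cKO, as deposited and after rescaling, with a median log2 change of -1.23, and their part in the changes given below was not tested.

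Of the 10 members, 7 were higher in Med1cKO, 1 was lower and 2 did not pass, at a limma adjusted p under 0.05 over all genes. Over all genes 44.9% were called higher and 16.4% lower as deposited. After rescaling, the members again gave 7 higher and 1 lower, where 26.9% of all genes were higher and 26.7% lower, and so they did after quantile normalization, where 28.7% were higher and 25.6% lower. The median log2 change of the members was 1.20 as deposited and 0.94 after rescaling, beside 0.25 and 0.01 for all genes. In the same 7 and 1 members the 4 Med1cKO values lay wholly above or below the 4 WT values, as they did upward in 41.7% and downward in 15.3% of all genes tested. The members that were higher were Timp1, Timp2, Timp3, Adamts1, Adamts2, Mmp14 and Mmp3, and the one that was lower was Mmp15. Mmp3 counts with a limit, since its WT mean was 0.732 FPKM and it reached the minimum of 1 FPKM only through its Med1cKO libraries. Because whole ventricle was measured, fewer cells of a type and less RNA per cell cannot be told apart.

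**Figure D1:**
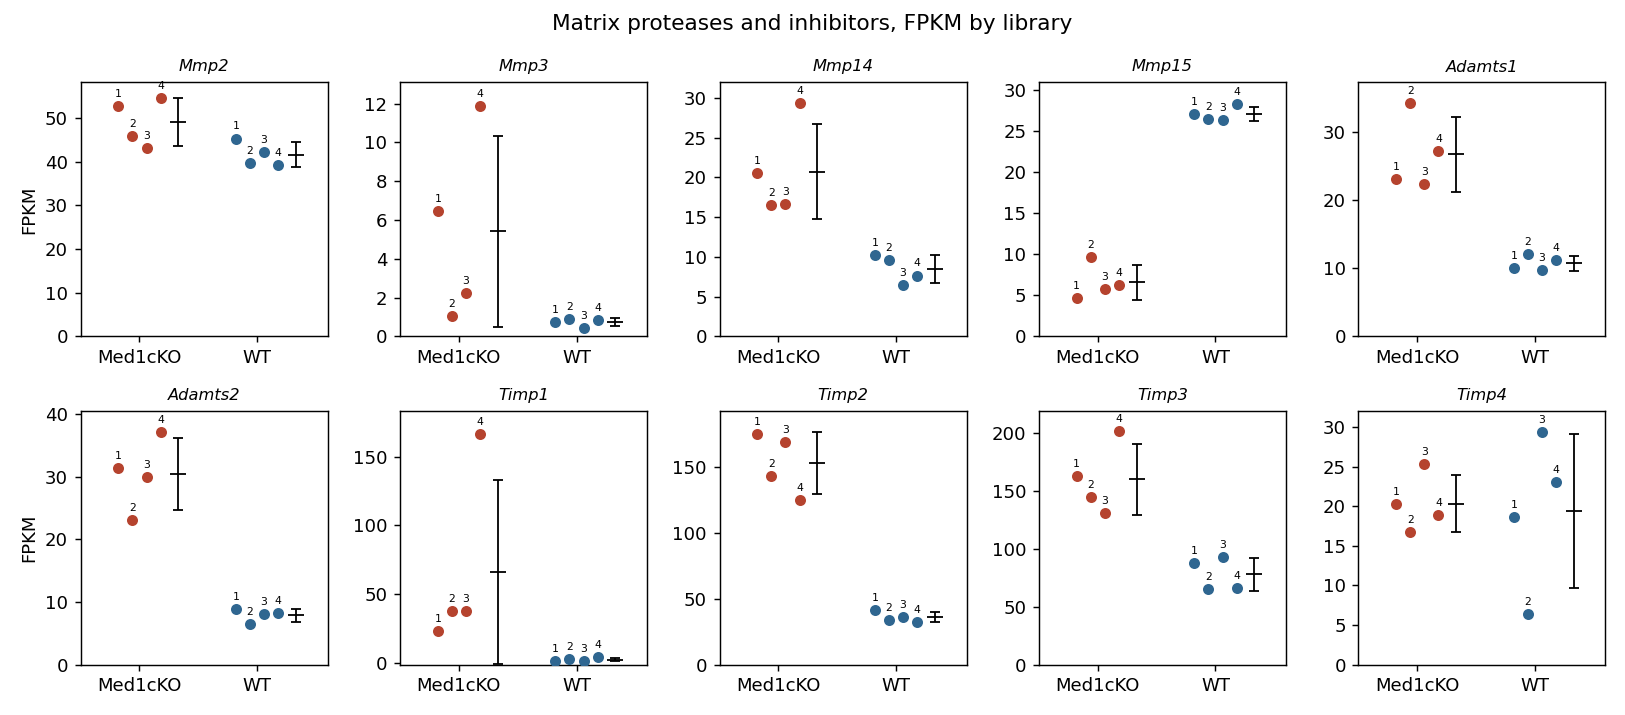
FPKM (linear axis) of the 10 members in each library, Med1cKO in red and WT in blue, numbered by replicate, with the mean and SD in black (n = 4 each). Groups overlap only for Mmp2 and Timp4, and Timp1 reaches 166 FPKM in Med1cKO replicate 4.

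Of the 4 inhibitor genes 3 rose. Timp1 encodes a secreted inhibitor that is induced in injured and remodelling tissue. It had 22.9, 37.5, 37.7 and 166 FPKM in the Med1cKO libraries, against 1.78, 2.58, 1.58 and 4.01 FPKM in the WT libraries. The lowest Med1cKO value was thus above every WT value, and replicate 4 was far above the other Med1cKO libraries. The log2 change of Timp1 was 3.88 ± 0.52 (SE, limma adjusted p = 0.000191), which ranked 18 from the largest rise among the 11975 genes. Without Med1cKO replicate 4 the mean was 32.7 ± 8.45 FPKM (SD, n = 3) in Med1cKO against 2.49 ± 1.11 FPKM (SD, n = 4) in WT. The log2 change was then 3.29 ± 0.26 (SE, limma adjusted p = 2.03e-05), a fold of 9.77 on the scale of FPKM + 1 where all libraries gave 14.7. The gene lies at 20870166 to 20874737 on the plus strand of chromosome X (mm10).

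Timp2 encodes the inhibitor that also takes part in activating the MMP2 precursor. Its levels were 175, 143, 169 and 125 FPKM in Med1cKO libraries and 41.5, 33.7, 36.4 and 32.6 FPKM in WT libraries. No library of one group came near the other, and Med1cKO replicate 4, the highest for Timp1, was the lowest of its group here. The log2 change was 2.05 ± 0.12 (SE, limma adjusted p = 2.25e-06), the most precise of the inhibitor changes. The gene is on the minus strand of chromosome 11 from 118301061 to 118355411.

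Timp3, the matrix-bound inhibitor, was the most abundant member in both groups by mean. It had 163, 145, 131 and 202 FPKM in Med1cKO libraries and 88.0, 65.5, 92.9 and 65.8 FPKM in WT libraries. The groups did not overlap, and the log2 change was 1.02 ± 0.16 (SE, limma adjusted p = 0.000484), or 0.78 above the median of all genes. It lies on the plus strand of chromosome 10 from 86300412 to 86349505.

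Timp4, the inhibitor whose expression in mice is concentrated in heart and a few other tissues, did not pass. It had 20.3, 16.8, 25.3 and 18.9 FPKM in Med1cKO libraries and 18.6, 6.35, 29.4 and 23.1 FPKM in WT libraries. The Med1cKO values all lay inside the WT range, which was wide and ran from replicate 2 up to replicate 3. The log2 change was 0.23 with a 95% interval of -0.63 to 1.08 (limma adjusted p = 0.627). Without WT replicate 2 the log2 change was -0.21 (limma adjusted p = 0.342), so even the direction rested on that library. The interval leaves room for a difference in either direction. Timp4 is on the minus strand of chromosome 6 from 115245616 to 115251849.

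Timp1, Timp3 and Timp4 each lie inside a larger synapsin gene on the opposite strand, namely Syn1, Syn3 and Syn2. The libraries were stranded, but whether counting used strand is not given in the sources used here. Syn1 had 0.148 to 0.466 FPKM in Med1cKO and 0.172 to 0.305 FPKM in WT. Syn3 had 0.313 to 0.333 FPKM in Med1cKO and 0.279 to 0.497 FPKM in WT, and Syn2 0.591 to 0.962 FPKM in Med1cKO and 0.585 to 0.796 FPKM in WT. All 3 enclosing genes were thus under 1 FPKM in every library, below the level of the inhibitor gene each contains.

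The inhibitor mixture differed between the groups as well as its total. Summed over the 4 genes, Timp RNA was 399 ± 76.9 FPKM in Med1cKO and 136 ± 23.6 FPKM in WT (SD, n = 4 each). Timp3 made up 40.1% ± 3.09 of the sum in Med1cKO and 57.4% ± 3.49 in WT, with no overlap between libraries. The share of Timp1 was 6.03%, 11.0%, 10.4% and 32.5% in Med1cKO libraries and 1.18%, 2.38%, 0.986% and 3.20% in WT libraries. The share of Timp2 was 39.7% ± 10.4 in Med1cKO and 26.9% ± 3.52 in WT, and these overlapped because of the 24.4% in Med1cKO replicate 4. Timp4, with a level that did not pass, held 3.69% to 6.99% of the sum in Med1cKO and 5.87% to 18.4% in WT. These shares do not move when a library is rescaled by 1 factor, and they carry no test because they are computed over chosen genes.

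**Figure D2:**
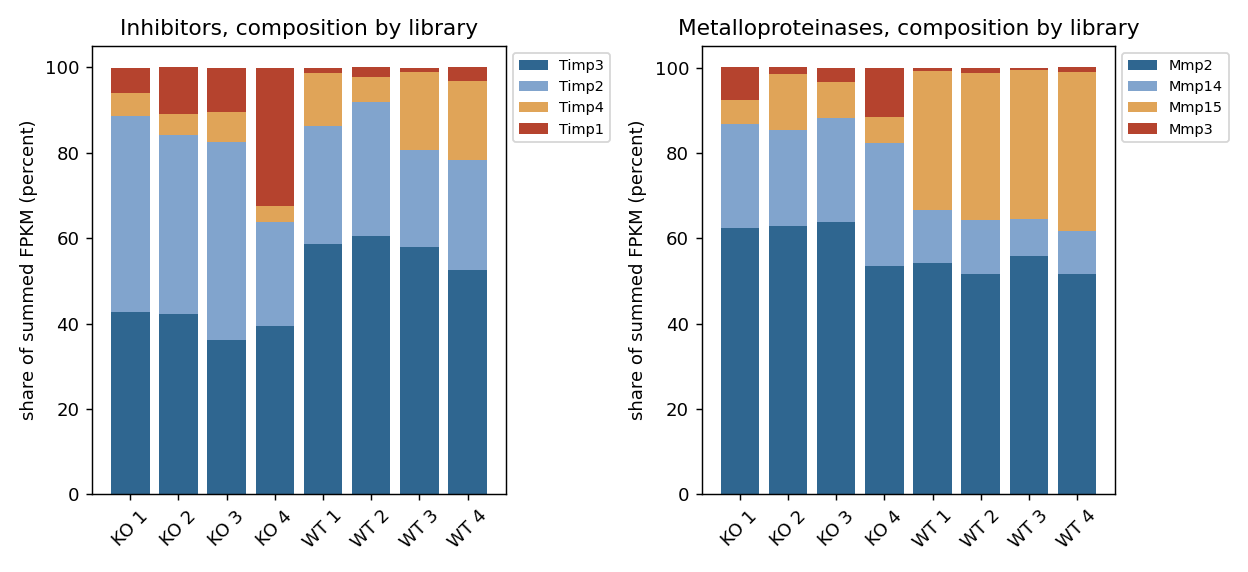
Share of each gene (percent, stacked bars) in the summed FPKM of the 4 Timp genes and of the 4 Mmp members in each library, Med1cKO (KO) left of WT. Timp3 holds 36.1% to 42.7% in Med1cKO and 52.5% to 60.6% in WT, and Mmp15 5.52% to 13.2% in Med1cKO and 32.6% to 37.3% in WT.

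Among the metalloproteinases the 2 membrane-anchored members went opposite ways. Mmp14 encodes the collagenase that activates the MMP2 precursor. It had 20.5, 16.5, 16.6 and 29.3 FPKM in Med1cKO libraries and 10.2, 9.55, 6.50 and 7.66 FPKM in WT libraries. All Med1cKO libraries were higher than all WT libraries, and replicate 4 was again the highest. The log2 change was 1.18 ± 0.19 (SE, limma adjusted p = 0.000589). Mmp14 lies on the plus strand of chromosome 14 from 54431604 to 54441258.

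Mmp15, a relative of Mmp14 with the same kind of membrane anchor, was the only member that fell. It had 4.66, 9.63, 5.77 and 6.25 FPKM in Med1cKO libraries and 27.1, 26.5, 26.4 and 28.3 FPKM in WT libraries. The WT libraries were nearly equal, and the highest Med1cKO value, in replicate 2, was well below them. The Med1cKO mean was 24.3% of the WT mean, the log2 change was -1.93 ± 0.17 (SE, limma adjusted p = 1.46e-05), and it ranked 149 from the largest fall among the 11975 genes. The ratio of Mmp14 to Mmp15 was 3.42 ± 1.39 in Med1cKO and 0.313 ± 0.0638 in WT (SD, n = 4 each), so the more abundant of the pair was Mmp14 in every Med1cKO library and Mmp15 in every WT library. Mmp15 is on the plus strand of chromosome 8 from 95352337 to 95374293.

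Mmp2, also on chromosome 8 (plus strand, 92827328 to 92853420), had the highest level of the 4 metalloproteinases in both groups. It had 52.7, 45.8, 43.2 and 54.6 FPKM in Med1cKO libraries and 45.3, 39.6, 42.2 and 39.2 FPKM in WT libraries. The groups overlapped, since Med1cKO replicate 3 lay below WT replicate 1. The log2 change was 0.23 with a 95% interval of 0.02 to 0.44 and did not pass (limma adjusted p = 0.055). Relative to the median of all genes it was -0.02, and after rescaling it was -0.04 (limma adjusted p = 0.695). Without Med1cKO replicate 3 or WT replicate 1 it passed (limma adjusted p = 0.0275 and 0.047). The authors' deposited table also left Mmp2 and Timp4 uncalled (q = 0.825 and 0.343) and called the other 8 members in the directions given here. For Mmp2 and Timp4 the authors' log2 fold changes were -0.04 and -0.21, opposite in sign to the 0.23 found for each here before rescaling.

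Mmp3, or stromelysin 1, is a secreted protease of stromal cells that cleaves proteoglycans and can activate other metalloproteinases. It had 6.48, 1.06, 2.22 and 11.9 FPKM in Med1cKO libraries and 0.731, 0.906, 0.434 and 0.857 FPKM in WT libraries. The groups did not overlap, but Med1cKO replicate 2 was close to the highest WT value while replicates 1 and 4 were many times above it. The log2 change was 1.55 ± 0.49 (SE, limma adjusted p = 0.0214). Every WT value was under the minimum of 1 FPKM, so the gene was tested only because of its Med1cKO values. With no minimum it passed at a limma adjusted p of 0.0461. It did not pass without Med1cKO replicate 1 (1.36, limma adjusted p = 0.0591) or without WT replicate 3 (1.46, limma adjusted p = 0.0532). Without Med1cKO replicate 4 it passed with a smaller change of 1.09 (limma adjusted p = 0.0332). Mmp3 lies on the plus strand of chromosome 9 from 7445822 to 7455974.

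The summed RNA of the 4 Mmp members was 81.8 ± 15.2 FPKM in Med1cKO and 77.8 ± 3.67 FPKM in WT (SD, n = 4 each), with overlapping libraries. This sum leaves out the 19 other Mmp genes, which together had 23.5 to 31.0 FPKM in Med1cKO and 9.21 to 11.2 FPKM in WT. The ratio of the 4 Mmp members to summed Timp RNA was 0.221, 0.214, 0.187 and 0.199 in Med1cKO libraries and 0.556, 0.708, 0.471 and 0.605 in WT libraries. The highest Med1cKO ratio was thus less than the lowest WT ratio. With Adamts1 and Adamts2 added to the enzymes the ratio was 0.350 ± 0.0268 in Med1cKO and 0.726 ± 0.125 in WT. The ratio of Timp2 to Mmp2 was 3.15 ± 0.670 in Med1cKO and 0.866 ± 0.0369 in WT.

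The 2 Adamts members both rose. Adamts1 encodes a secreted protease that cleaves the proteoglycans versican and aggrecan. It had 23.0, 34.2, 22.3 and 27.2 FPKM in Med1cKO libraries and 10, 12.0, 9.68 and 11.2 FPKM in WT libraries. Every Med1cKO library was above every WT library, the log2 change was 1.22 ± 0.14 (SE, limma adjusted p = 5.99e-05), and Med1cKO replicate 2, not 4, was the highest. Adamts1 is on the minus strand of chromosome 16 from 85793828 to 85803115.

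Adamts2 encodes the protease that removes the amino-terminal propeptide from fibrillar procollagens. It had 31.4, 23.1, 29.9 and 37.1 FPKM in Med1cKO libraries and 8.86, 6.46, 8.10 and 8.22 FPKM in WT libraries. The groups were far apart, and the log2 change was 1.80 ± 0.14 (SE, limma adjusted p = 9.57e-06). Its collagen substrate Col1a1 had a log2 change of 2.07, and the ratio of Adamts2 to Col1a1 overlapped between the groups, at 0.160 ± 0.0244 in Med1cKO and 0.178 ± 0.0121 in WT (SD, n = 4 each). The ratio of summed Mmp2 and Mmp14 to Col1a1 did not overlap and was 0.369 ± 0.0566 in Med1cKO and 1.14 ± 0.205 in WT. Adamts2 lies on the plus strand of chromosome 11 from 50602085 to 50804049.

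**Figure D3:**
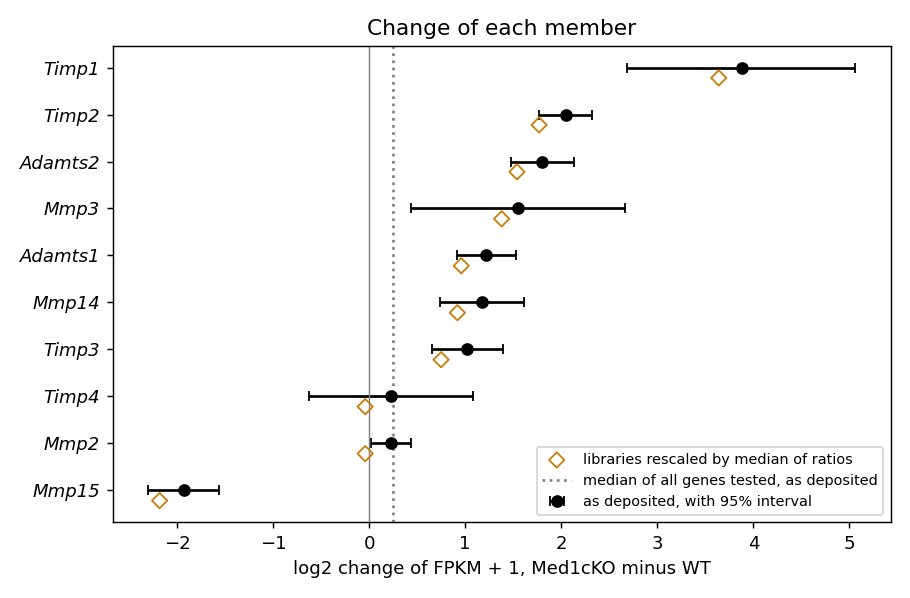
Log2 change of FPKM + 1 (Med1cKO minus WT) of each member with its 95% interval from limma (black), the value after median-of-ratios rescaling (open diamonds), and the median of all genes tested (dotted line, 0.25). Mmp15 alone lies clearly below 0, and Mmp2 and Timp4 sit at the median of all genes.

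The order of levels differed between the groups. In Med1cKO, Timp3 and Timp2 led with means of 160.0 and 153 FPKM, and their libraries overlapped. Timp1 followed at 66.1 FPKM with a spread that reached both Timp2 and Mmp2 (49.1 FPKM). Its place above Mmp2 rested on Med1cKO replicate 4, since Timp1 was below Mmp2 in the other 3 Med1cKO libraries, and without replicate 4 the means were 32.7 FPKM for Timp1 and 47.3 FPKM for Mmp2. Adamts2, Adamts1, Mmp14 and Timp4 came next, at 30.4, 26.7, 20.7 and 20.3 FPKM, and each overlapped its neighbour in that order. Mmp15 and Mmp3 were lowest at 6.58 and 5.41 FPKM and overlapped. In WT, Timp3 led at 78.1 FPKM above Mmp2 and Timp2, which overlapped at 41.6 and 36.1 FPKM. Mmp15 came next at 27.1 FPKM with Timp4 overlapping it at 19.4 FPKM, Adamts1, Mmp14 and Adamts2 each overlapped their neighbours at 10.7, 8.47 and 7.91 FPKM, and Timp1 and Mmp3 were lowest at 2.49 and 0.732 FPKM, apart from each other and from the genes above them.

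By the distance between profiles of log2(FPKM + 1), each centred on its WT mean, the genes nearest to Timp1 over the 8 libraries were Eln, Prss57 and Fstl3. Their root mean square differences were 0.69, 0.70 and 0.71 on the log2 scale, so no gene lay close to Timp1 by this measure. Eln, which encodes elastin, had 369 to 812 FPKM in Med1cKO and 39.1 to 46.8 FPKM in WT. The genes nearest to Mmp15 were Rab3a, 2310061I04Rik and Pfkm, which were much closer, at 0.11, 0.12 and 0.12. This distance takes in the difference between groups, a log2 change of -1.95, -1.95 and -1.94 for them and -1.93 for Mmp15. Being near by it does not show shared regulation. Pfkm, the muscle phosphofructokinase, had 80.9 to 143 FPKM in Med1cKO and 377 to 424 FPKM in WT.

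Markers of other cell types differed in part along with these genes. Of 5 epicardial and mesothelial markers (Wt1, Upk3b, Msln, Upk1b and Krt19), none was called in either direction. Their summed level was 10.2, 4.47, 2.96 and 59.0 FPKM in Med1cKO libraries and 1.87, 1.86, 9.90 and 2.14 FPKM in WT libraries. Upk3b, Msln, Upk1b and Krt19 were each highest in Med1cKO replicate 4. Wt1 was highest in Med1cKO replicate 1, with 3.62 FPKM there and 2.68 FPKM in replicate 4. The library with the highest sum, Med1cKO replicate 4, was also the highest for Timp1, Mmp3, Mmp14, Timp3, Adamts2 and Mmp2. It was not the highest for Timp2, Timp4, Mmp15 or Adamts1. Among WT libraries the highest sum was in replicate 3, which had the lowest Timp1 and Mmp3 of its group. Upk3b was at 0 in Med1cKO replicate 3 and in WT replicates 1 and 2, Upk1b was at 0 in the same WT libraries, Msln was at 0 in WT replicate 2, and none of the 5 was at 0 in all libraries. Med1cKO replicate 1, with the next highest sum of these markers, was also next highest for Mmp3 but had the lowest Timp1 of its group. As given above, both genes passed without Med1cKO replicate 4, and Mmp3 did not pass without Med1cKO replicate 1. The part of these cells in the rise of Timp1 and Mmp3 was not tested.

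**Figure D4:**
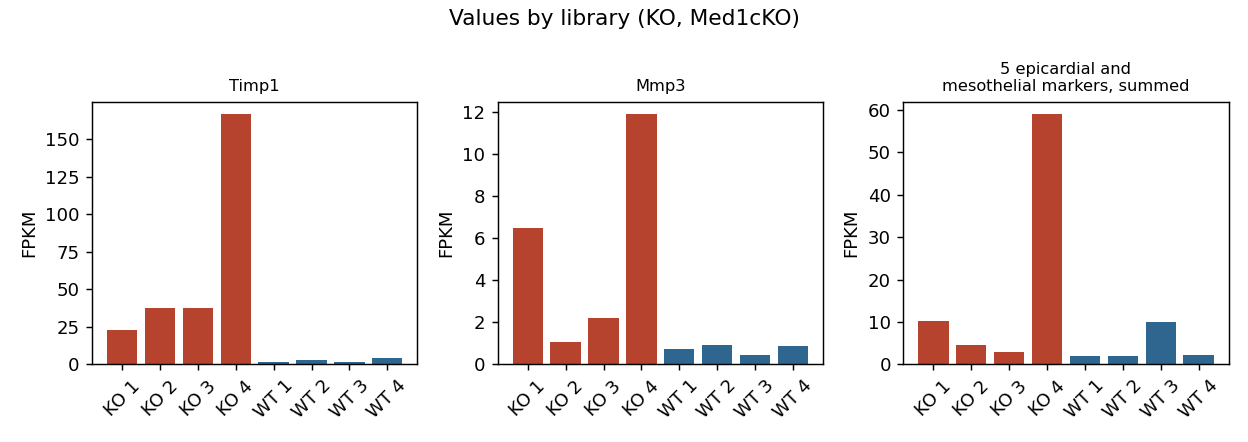
FPKM by library of Timp1, of Mmp3 and of 5 summed epicardial and mesothelial markers, Med1cKO (KO, red) left of WT (blue). Med1cKO replicate 4 is the highest library in all 3 panels, at 166, 11.9 and 59.0 FPKM.

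The marker counts that follow stand beside the shares over all genes tested. These were 44.9% higher and 16.4% lower as deposited, and 26.9% and 26.7% after rescaling. Of 10 fibroblast markers, 6 were higher and none lower (4 higher after rescaling). Their sum was 1326 to 2210 FPKM in Med1cKO and 942 to 1260 FPKM in WT. Col1a1, Col1a2, Mfap4 and Tcf21 were called on both scales, with Pdgfra and Dcn called as deposited. Dpt, Lum, Gsn and Dpep1 were called on neither scale. Dpt stood at -0.11 in log2 before rescaling, and Lum, Gsn and Dpep1 at 0.18, 0.13 and 0.69. Rescaling put Dpt, Lum and Gsn at -0.38, -0.09 and -0.15, and Dpep1 at 0.42. Col1a1, Col1a2 and Dcn also belong to the matrix substrate list below, which was known beforehand to rise. The ratio of Mmp2 to Pdgfra, a fibroblast receptor, overlapped between the groups at 3.50 ± 0.681 in Med1cKO and 4.27 ± 0.384 in WT (SD, n = 4 each). Of 9 macrophage markers in the table none was called, with sums of 202 to 385 FPKM in Med1cKO and 271 to 412 FPKM in WT, and after rescaling 3 were lower. Of the 6 neutrophil markers found, 2 reached the minimum, 1 was higher (none after rescaling), and the sums were 10.5 to 32.4 FPKM in Med1cKO and 7.99 to 13.0 FPKM in WT, Med1cKO replicate 4 again being highest. Of 8 endothelial markers 2 were higher and 2 lower (1 and 4 after rescaling), with sums of 302 to 416 FPKM in Med1cKO and 300 to 375 FPKM in WT. Of 8 pericyte and smooth muscle markers 2 were higher and 4 lower (1 and 4 after rescaling), with sums of 364 to 473 FPKM in Med1cKO and 412 to 582 FPKM in WT. Of 5 mast cell markers 1 reached the minimum and was not called, with sums of 2.70 to 10.4 FPKM in Med1cKO and 3.37 to 5.06 FPKM in WT. None of these genes was at 0 in every library, and their part in the members' changes was not tested.

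The remaining metalloproteinase genes were mostly low. Of 19 others, 14 were below the minimum, 2 rose, none fell and 3 did not pass. Over all genes tested 44.9% rose and 16.4% fell. Mmp23 rose to 17.1 ± 1.08 FPKM in Med1cKO, against 3.11 ± 0.961 FPKM in WT (SD, n = 4 each), with a log2 change of 2.17 (limma adjusted p = 4.86e-06). Mmp17 rose by 0.41 on the log2 scale (limma adjusted p = 0.016) and did not pass after rescaling (0.27, limma adjusted p = 0.0887). Its WT mean was 0.771 FPKM, so it reached the minimum only through its Med1cKO libraries. Mmp1a, Mmp1b, Mmp7 and Mmp20 were listed at 0 in every library.

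Of 22 other Adamts genes and their non-enzymatic Adamtsl relatives, 13 were tested, 5 rose, 2 fell and 6 did not pass (4 rose and 3 fell after rescaling). These counts are near the shares over all genes, of which 44.9% rose and 16.4% fell. Adamtsl2, which encodes a matrix glycoprotein that binds the TGF-beta regulator LTBP1, rose to 80.6 ± 12.4 FPKM in Med1cKO, against 7.79 ± 0.928 FPKM in WT (SD, n = 4 each, limma adjusted p = 3.48e-07). Adamtsl5 rose to 84.0 ± 15.5 FPKM in Med1cKO, against 22.3 ± 4.72 FPKM in WT. Adamts8 rose by 1.92 on the log2 scale, but with a WT mean of 0.351 FPKM it reached the minimum only through its Med1cKO libraries. Adamts7, whose protein cleaves cartilage oligomeric matrix protein, fell to 1.39 ± 0.134 FPKM in Med1cKO, against 7.18 ± 0.504 FPKM in WT (limma adjusted p = 8.99e-07). Of 8 membrane-bound Adam protease genes 5 were tested and 3 rose, namely Adam9, Adam10 and Adam15, by 1.61, 0.58 and 0.24 on the log2 scale, and Adam15 did not pass after rescaling.

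Of 19 genes listed as activators and other regulators of matrix proteases, 15 were tested, 11 rose and 2 fell (7 and 2 after rescaling). Their median log2 change was 0.74 beside 0.25 for all genes. The 11 include Serpinh1, which encodes a collagen chaperone and no protease inhibitor. Serpinh1 did not pass after rescaling (0.42, limma adjusted p = 0.202). Among all genes 44.9% rose and 16.4% fell as deposited, and 26.9% and 26.7% after rescaling, so more rises than falls as deposited is common to the whole table. Lrp1, the receptor that takes up protease and inhibitor complexes, rose by 1.40 on the log2 scale, the proprotein convertase Pcsk5 by 1.38 and Serpinb6a by 1.09. Pcsk5 had a WT mean of 0.811 FPKM and reached the minimum only through its Med1cKO libraries. Of 9 procollagen processing genes besides Adamts2, 4 were tested, 3 rose and none fell on either scale. Pcolce and Pcolce2, whose products enhance the cutting of the carboxy-terminal propeptide, had log2 changes of 1.40 and 1.25, and Bmp1, which encodes the cutting enzyme, 0.67.

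Over all genes 44.9% rose and 16.4% fell as deposited, and 26.9% and 26.7% after rescaling. Of 14 other genes of matrix-degrading proteases and related proteins, 11 were tested, 7 rose and none fell (5 and 1 after rescaling). Among the risers on both scales was Hspg2, which encodes a matrix proteoglycan and no protease (log2 change 0.63, and 0.35 after rescaling). Ctsz, Ctsk, Ctsl and Ctsd, which encode cathepsins, rose by 1.38, 1.3, 1.12 and 0.70 on the log2 scale, and Ctsd did not pass after rescaling (0.42, limma adjusted p = 0.06). Of 23 matrix substrate genes 21 were tested and all 21 rose as deposited, 18 of them also after rescaling, with a median log2 change of 1.21. The largest rises were in Postn (periostin), Eln, Thbs1 (thrombospondin 1) and Bgn (biglycan), with log2 changes of 4.06, 3.60, 3.25 and 2.77. This list was known from earlier results of these data to rise, so its direction is no independent evidence.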

How the data were processed

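Total RNA from frozen ventricles was enriched for poly(A) and made into stranded libraries, per the labels' protocols. The submitters' processing notes name mm10, TopHat (1.0.0), Cufflinks and Cuffdiff, with no annotation. A deposited table holds each library's FPKM, per the file headers. Another, from which values are quoted only where it is named, holds the authors' pooled FPKM, log2 fold changes, p-values, q-values and a test statistic score. Of the FPKM rows, 312 hold a word in place of numbers and were left out, 1 further value failed in 1 library, and 0.001 was read as 0. FPKM falls for a gene when others take more of the library.

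Genes averaging 1 FPKM or more over the 8 libraries were tested with limma (3.58.1, R 4.3.3) after taking log2(FPKM + 1), with a variance trend, no covariate and Benjamini-Hochberg adjustment over all of them. Changes are Med1cKO minus WT on that scale, which understates those of low genes. The script was tested on simulated data with known changes. Alternatives were a pseudocount of 0.1, no minimum or 5 FPKM, median-of-ratios rescaling, quantile normalization, other variance models, a replicate block, and leaving out each library in turn.

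The members and gene lists were chosen with earlier results of these data known, and ratios between single genes were added with their values in view. From each list up to 4 called genes of largest change are named, or the 2 most abundant where none passed. A gene that this rule names is not reported here. Other genes were named after their values were seen. Positions count from 1, and strands are from GENCODE M21.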

Additional observations from a re-analysis of the deposited data

Results flagged for a closer look

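Timp1 in the Med1cKO libraries was the one case, among 32 groups of 4 values looked at, in which a library lay far from the rest. Med1cKO replicate 4 had 166 FPKM, and its gap to the next library was 0.897 of the range of the group, past Dixon's 95% critical value for 4 samples. Chance passes that value in about 1 of 20 groups. The other 3 Med1cKO libraries had 22.9, 37.5 and 37.7 FPKM, all above the 4.01 FPKM of the highest WT library.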

How the results depend on the processing

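Mmp14, Mmp15, Adamts1, Adamts2, Timp1, Timp2 and Timp3 kept their direction and their call under all 16 alternatives. Mmp3 could not be tested at a minimum of 5 FPKM, and its log2 change ran from 1.09 to 2.24 over the others (limma adjusted p from 0.00313 to 0.0591). Mmp2 had a log2 change of -0.04 after median-of-ratios rescaling and after quantile normalization (limma adjusted p from 0.0275 to 0.727 over the alternatives). Timp4 had -0.04 and -0.03 in those settings and -0.21 without WT replicate 2, in a range of -0.21 to 0.48 over the libraries left out. Over all genes, rescaling gave 3219 higher and 3203 lower and quantile normalization 3437 and 3066; both settings take out the common shift. Med1 was called in every setting. Leaving out libraries gave 6 to 8 members higher. The share of Timp1 in Timp RNA was 13.0 percentage points higher in Med1cKO, and 7.19 without Med1cKO replicate 4. The replicate block gave 5089 higher and 1867 lower genes and changed no member's call. Same-numbered libraries correlated at 0.14, 0.033, -0.041 and -0.014 in their deviations from the group means, so the numbers were not taken to pair them. The number of fragments is unknown, so precision rests on 4 libraries a group.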

Other observations

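Several protease genes below 1 FPKM on average were outside the main comparison. Adamts4, which encodes an aggrecan-cleaving protease, had 0.925, 1.01, 1.17 and 1.44 FPKM in Med1cKO libraries and 0.204, 0.126, 0.0404 and 0.199 FPKM in WT libraries. Mmp9, a gelatinase of leukocytes, had 0.286, 0.228, 0.176 and 0.731 FPKM in Med1cKO libraries and 0.134, 0.0994, 0.262 and 0.130 FPKM in WT libraries. Mmp8, the neutrophil collagenase, averaged 0.299 ± 0.355 FPKM in Med1cKO and 0.0418 ± 0.0316 FPKM in WT (SD, n = 4 each). For Mmp8 and Mmp9 the highest library was Med1cKO replicate 4, and for Adamts4 all Med1cKO libraries were above all WT libraries. These genes were chosen after their values were seen.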
